A study of Mus musculus with 6 samples.

Results

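Zinc and magnesium cross cell membranes through dedicated transporter families, and the genes of these families in mouse pancreatic islets are described here, among them the magnesium transporter gene Slc41a3. The members were taken by gene symbol from the table of gene counts: every row whose symbol starts with Slc30a, Slc39a or Slc41a, together with Trpm6, Trpm7, Cnnm1, Cnnm2, Cnnm3, Cnnm4, Mt1, Mt2 and Mtf1. This gave 35 of the 19342 genes in the table, of which 9 were Slc30a genes, 14 Slc39a genes, 3 Slc41a genes, 4 Cnnm genes and 2 Trpm genes, with Mt1, Mt2 and Mtf1 making up the rest. RNA-seq was done on islets of C57Bl/6 mice aged 3 months that either carried the bile acid receptor FXR (FXR+/+, the WT libraries) or lacked it throughout the body (FXR-/-, the KO libraries). No treatment is named for either group. Each genotype had 3 libraries, 1 from a female (F1) and 2 from males (M1 and M2), and the labels do not say whether a library came from a single mouse or from several.

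Zinc is packed with insulin into the secretory granules of the beta cell, where it holds insulin in its crystalline form. Transporters of the Slc30a family (ZnT) move zinc out of the cytosol, into organelles or out of the cell, and those of the Slc39a family (ZIP) bring it into the cytosol. The metallothioneins Mt1 and Mt2 bind free zinc, and Mtf1 is the zinc-sensing transcription factor that switches them on through metal response elements in their promoters. Magnesium, a cofactor of ATP, is moved by the Slc41a transporters and the Trpm6 and Trpm7 channel kinases, and its handling also depends on the Cnnm proteins.

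The libraries held 20629306 to 30139235 gene counts, and the members took 0.226% to 0.298% of them. The insulin genes Ins1 and Ins2 took 17.5% to 23.9% of the counts, so the tissue label was borne out by its defining transcripts. Acinar transcripts of the exocrine pancreas were also plentiful: the 21 acinar genes measured, none of them at 0, took 5.14% to 14.9%, and both M1 libraries stood highest, at 14.3% in FXR+/+ and 14.9% in FXR-/-. The 12 immediate early and stress genes, of which the immediate early ones respond within minutes to handling, summed to 360 CPM (counts scaled to a library total of 1000000) in FXR+/+ M2 against 1280 to 7180 CPM in the other libraries. Nr1h4, the gene of FXR, was counted 333, 274 and 386 times in FXR+/+ against 140, 145 and 138 times in FXR-/-. Its fitted log2 fold change was -1.07 ± 0.16 (SE) with an edgeR adjusted p of 0.216, so the targeted gene itself did not pass at gene level. Its last exon fell from 73, 56 and 81 counts to 0 in every FXR-/- library (edgeR adjusted p = 0.00656 over exons). The exon next to it rose from 1, 2 and 0 counts to 11, 13 and 8, and was not tested. In islet RNA of this kind, fewer cells of a type and less RNA per cell cannot be told apart.

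Slc41a3 was the member with the largest difference between genotypes among those tested. The gene lies on chromosome 6 (90604725 to 90646412, plus strand, GRCm38). All CPM are scaled between libraries by the trimmed mean of M-values (TMM). Slc41a3 stood at 6.52, 4.26 and 2.68 CPM in FXR+/+ F1, M1 and M2, and at 13.2, 14.3 and 16.4 CPM in FXR-/- F1, M1 and M2. The groups did not overlap, the FXR+/+ female being nearest to the FXR-/- libraries. The mean was 4.49 ± 1.93 CPM in FXR+/+ and 14.6 ± 1.60 CPM in FXR-/- (SD, n = 3 each), and the fitted log2 fold change was 1.77 ± 0.277 (SE). With edgeR's quasi-likelihood test and Benjamini-Hochberg adjustment over 14619 genes, the adjusted p was 0.216, and with the same-numbered libraries as a block it was 0.0532. DESeq2, which models the spread differently, gave the same size of difference (1.76) with an adjusted p of 1.87e-06. An exact two-sided permutation test over the 6 libraries gave p = 0.1, the smallest that 3 against 3 allows. Without both M1 libraries, which held the most acinar RNA, the fitted difference was 1.79 on the log2 scale with an adjusted p of 0.0219, so the difference was as large without them.

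Within same-numbered libraries the level of Slc41a3 in FXR-/- was 2.02 times that of FXR+/+ for F1, 3.36 times for M1 and 6.10 times for M2. The FXR+/+ levels differed more between the pairs than the FXR-/- levels did. A term for genotype by sex was 1.14 on the log2 scale with an unadjusted p of 0.0359 by edgeR, and its adjusted p was 1.0. That term was called for 0 of the 33 members tested and for 0% of all genes, and Slc41a3 was the only member with an unadjusted p under 0.05. Each genotype had a single female library, so sex and library cannot be told apart here.

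Those counts of Slc41a3 that were placed on exons lay almost wholly at its end. The 8 exons listed held 107 counts in FXR+/+ and 329 in FXR-/-, against 324 and 987 for the gene. The position of the remaining counts is not known. Exon 12, the last exon (chromosome 6, 90645569 to 90646412, which closes the coding sequence and carries the 3′ UTR), was counted 62, 17 and 20 times in FXR+/+ against 95, 71 and 113 times in FXR-/-. The other 7 exons listed summed to only 2, 2 and 4 counts in FXR+/+, against 13, 17 and 20 in FXR-/-. Exon 2 (90611879 to 90612181), the first coding exon of 1 annotated transcript, had 1 count in each FXR+/+ library against 8, 7 and 7 in FXR-/-. Exon 3 (90619246 to 90619645), the first exon of another transcript, had 0, 1 and 2 counts in FXR+/+ against 3, 7 and 8 in FXR-/-. Exons 2 and 3 were therefore counted more often in every FXR-/- library than in any FXR+/+ library, though on very few reads. Exon 1 (90604880 to 90605008), further 5′, overlapped, with 1, 0 and 0 counts in FXR+/+ and 0, 0 and 2 in FXR-/-. For exon 12 the log2 fold change was 1.76 ± 0.374 (SE), with an edgeR adjusted p of 0.301 over the 26998 exons tested, 0.0401 with the replicate block and 0.00317 by DESeq2. The value without FXR+/+ F1 was 2.56 (adjusted p = 0.0305) and without FXR-/- F1 also 2.56 (adjusted p = 0.0349), while with the males alone it was 2.55 (adjusted p = 0.0614). Among the 74 exons of members that were tested, 0 were called against 0.0185% of all exons, and 8 had an unadjusted p under 0.05, or 10.8% against 7.79% of all exons.

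A sequence upstream of the third exon is shown because it holds an E-box, the letters CACGTG to which the clock factors of the Arntl and Npas2 type bind. Another annotated transcript of Slc41a3 starts at 90604725, and no window there was searched. RefSeq places a start of Slc41a3 at 90619246, and the 150 bases at chr6:90618996-90619145 on the plus strand of GRCm38.p6 read 5′ to 3′ as follows, with the E-box in capitals.
Slc41a3: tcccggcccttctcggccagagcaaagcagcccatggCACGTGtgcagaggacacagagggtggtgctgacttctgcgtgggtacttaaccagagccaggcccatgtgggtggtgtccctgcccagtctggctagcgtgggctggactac
The E-box lies 213 bases before that start, and the letters GTGTGCA, a metal response element core read on the minus strand, overlap its end. Windows from 250 bases before to 50 bases after a RefSeq start were available for 31 of the 35 members, and CACGTG was found in those of 6 members: Cnnm1, Slc30a5, Slc39a8, Slc39a11, Slc41a3 and Trpm7. It was present in 7.15% of all 32841 windows. The consensus inverted repeat to which FXR binds (IR-1), searched on both strands with 1 mismatch allowed, was in none of the members' windows and in 0.0822% of all windows. Such matches describe the letters in these windows only.

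Values of clock genes are given beside Slc41a3, since some of them separated the same libraries, though 0 of the 15 listed passed edgeR's adjusted threshold. Arntl, the core activator of the circadian clock, stood at 10.7, 3.57 and 2.30 CPM in FXR+/+ and at 22.1, 30.2 and 22.2 CPM in FXR-/-. Npas2, its partner, stood at 1.49, 0.495 and 0.189 CPM in FXR+/+ and at 4.90, 8.15 and 6.52 CPM in FXR-/-. As for Slc41a3, the groups did not overlap, FXR+/+ F1 was the highest and M2 the lowest of its genotype, and the fitted log2 fold changes were 2.43 ± 0.442 and 3.31 ± 0.566 (edgeR adjusted p = 0.225 for both). DESeq2 gave adjusted p-values of 0.00662 for Arntl and 9.31e-07 for Npas2, and edgeR without the M1 pair gave 0.035 and 0.0294. Of the 5 clock genes that peak with Arntl, 5 had a higher fitted value in FXR-/-. Of these, 3 had an unadjusted p under 0.05 (60.0% against 10.3% of all genes). Of the 10 that peak in the opposite phase, 10 had a lower fitted value, 7 with an unadjusted p under 0.05 (70.0%). The pairs were not alike: between the F1 libraries Dbp, Hlf, Per2 and Bhlhe41 were higher in FXR-/-, at 1.36, 1.30, 1.16 and 1.02 times FXR+/+. The other genes of that list were lower there. The genotype by sex term had an unadjusted edgeR p under 0.05 for 3 of the 5 and 6 of the 10, against 217 of all 14619 genes. It was called for 0 of them after adjustment. Per3 was 20, 55.8 and 65.6 CPM in FXR+/+ against 17.8, 9.62 and 15.6 CPM in FXR-/-, and Nr1d2 was 86.1, 157 and 156 CPM against 69.3, 51.1 and 60.9 CPM. The labels give no time of day for the islets, and the part of the clock in the difference in Slc41a3 was not tested.

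**Figure D1:**
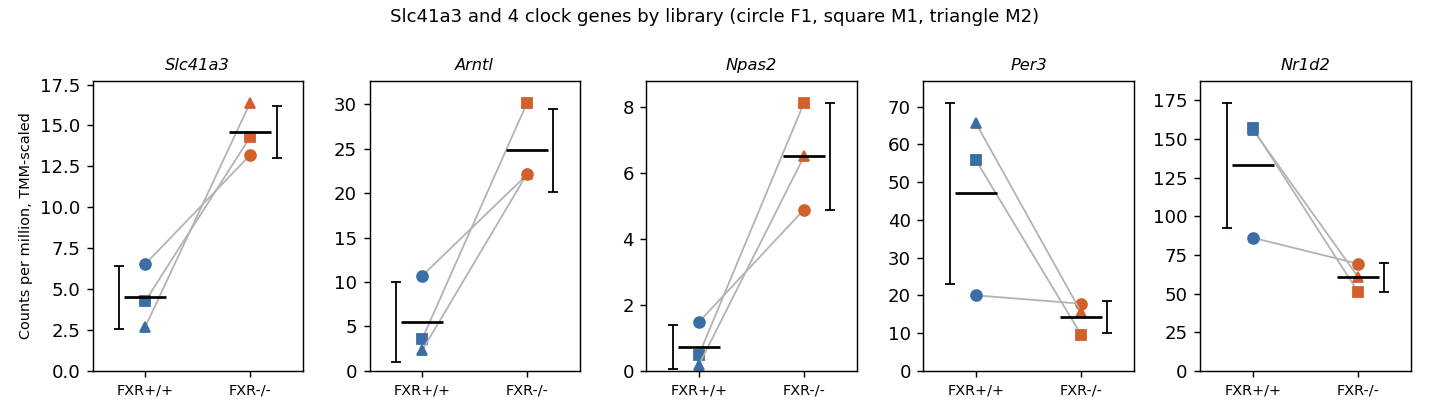
Slc41a3 beside the clock genes Arntl, Npas2, Per3 and Nr1d2 in TMM-scaled CPM (vertical axes, starting at 0) for the 3 FXR+/+ and 3 FXR-/- libraries. Grey lines join same-numbered libraries, horizontal bars are means and error bars SD (n = 3). The clock genes shown are among those whose groups did not overlap, while others listed, such as Clock, Cry1 and Per1, overlapped. In every panel FXR+/+ F1 is the FXR+/+ library nearest to the FXR-/- libraries.

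The other Slc41a genes did not share the separation seen for Slc41a3. Slc41a1, a magnesium exporter of the plasma membrane, stood at 31.3, 64.8 and 32.2 CPM in FXR+/+ and at 36.4, 53.6 and 43.5 CPM in FXR-/-. Both M1 libraries were highest and the groups overlapped (log2 fold change 0.07 ± 0.235, edgeR adjusted p = 0.917). Slc41a2 stood at 15.9, 11.5 and 15.2 CPM in FXR+/+ and at 18.3, 15 and 13.8 CPM in FXR-/-, again with overlap (0.14 ± 0.133, adjusted p = 0.689). Per kilobase of exon, which allows genes to be compared, the FXR+/+ level of Slc41a3 was 1.54 CPM, below Slc41a1 at 9.11 CPM and Slc41a2 at 3.00 CPM. In FXR-/- it was 5.02 CPM per kilobase.

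Across all the members tested the genotypes differed little. Counts sufficed for a test in 33 of 35 members, leaving out Slc30a10 (1, 1 and 12 counts in FXR+/+, 0 in each FXR-/- library) and Slc39a12 (1 count in all). With edgeR 0 of the 33 passed an adjusted p of 0.05, as did 0% of all genes tested. The targeted gene Nr1h4 did not pass either, so the lack of calls does not show a lack of change. An unadjusted p under 0.05 was had by 3 members, or 9.09% against 10.3% of all genes. These were Slc41a3 and Slc39a11, both higher in FXR-/-, and Slc30a4, which was lower. The replicate block called 0 members against 0.157% of all genes, and DESeq2 called 1, Slc41a3, against 1.37% of the genes for which it gave an adjusted p. The median log2 fold change was 0.03 over the members and 0.01 over all genes, and 28 of the 33 members lay within 0.5 of 0 on the log2 scale, or 84.8% against 91.5% of all genes. On TMM-scaled levels all FXR-/- libraries lay above all FXR+/+ libraries for 6 members (18.2% against 8.01% of all genes). They lay below them for 2 members (6.06% against 7.37%). These were Slc41a3, Slc39a11, Cnnm1, Cnnm2, Cnnm3 and Slc39a3 on the higher side and Slc30a4 and Slc39a9 on the lower side.

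**Figure D2:**
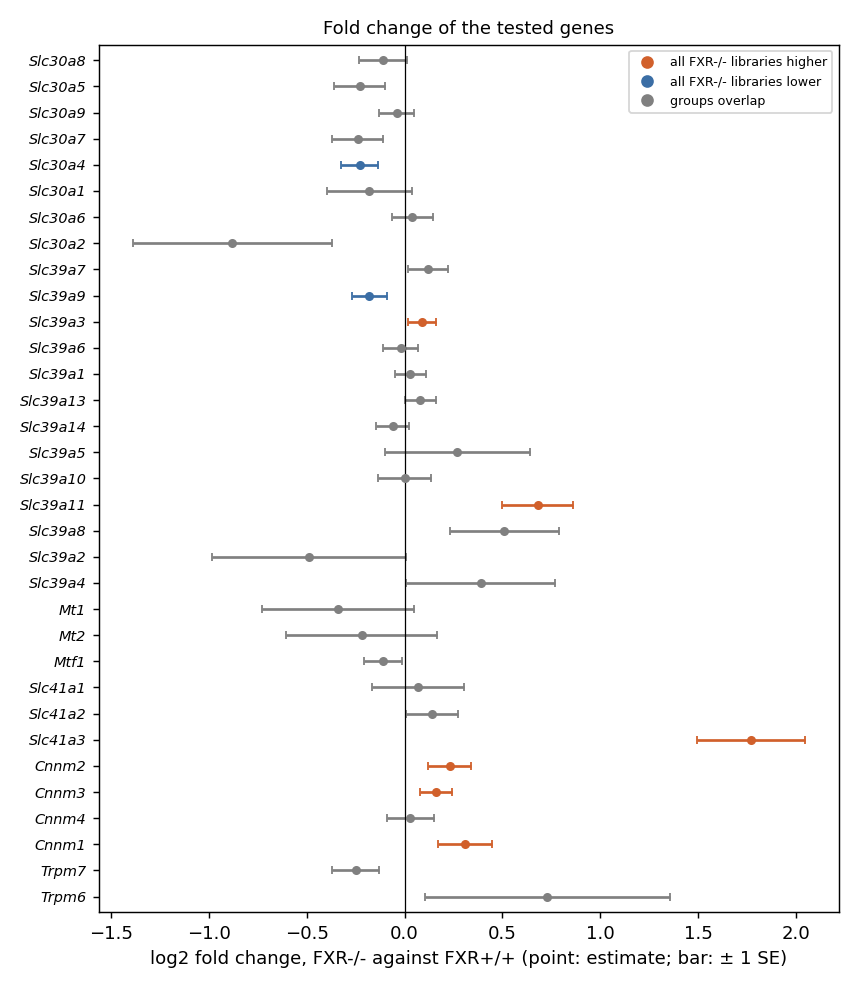
Log2 fold change of FXR-/- against FXR+/+ (horizontal axis) for the 33 members tested, ordered by family and level. Points are edgeR estimates and bars 1 SE to each side; Slc41a3 at 1.77 stands apart, and 28 of the 33 lie within 0.5 of 0.

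Among the zinc exporters, Slc30a8 dominated. Its product ZnT8 loads zinc into the insulin granule, and it alone made up 33.6% of the members' summed CPM in FXR+/+. Slc30a8 stood at 969, 834 and 895 CPM in FXR+/+ and at 895, 737 and 866 CPM in FXR-/-. The groups overlapped, M1 was the lowest library of each genotype, and the fitted difference was -0.11 ± 0.123 on the log2 scale (edgeR adjusted p = 0.734). All 8 of its exons had log2 fold changes at or below -0.07, the lowest being -0.44 ± 0.147 for exon 6 with an adjusted p of 0.609. Per kilobase of exon its FXR+/+ level of 456 CPM was the highest listed, followed by Mt1 at 364 CPM. The exon length used for Mt1, 1246 bases, is that of the whole gene (chromosome 8, 94179082 to 94180327). The order of Slc30a8 and Mt1 per kilobase is therefore not settled.

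The remaining exporters were far lower. Slc30a5 and Slc30a7, which serve the early secretory pathway, had FXR+/+ means of 86.3 ± 13.9 and 72.1 ± 11.7 CPM (SD, n = 3) and FXR-/- means of 73.8 ± 6.65 and 61.1 ± 6.28 CPM. Slc30a4, a vesicular exporter, stood at 34.6, 33.4 and 35.6 CPM in FXR+/+ and at 32.3, 26.3 and 29.7 CPM in FXR-/-. Every FXR-/- library lay below every FXR+/+ library, by a small margin, and the fitted difference was -0.23 ± 0.0948 (edgeR unadjusted p = 0.041, adjusted p = 0.474). Slc30a1, the exporter of the plasma membrane and a target of Mtf1, stood at 31.7, 28.6 and 26.5 CPM in FXR+/+ and at 37.2, 15.2 and 26.8 CPM in FXR-/-. Its FXR-/- libraries were both the highest and the lowest, so the genotypes did not separate (-0.18 ± 0.219, adjusted p = 0.758). Of the 8 exporters tested, 7 had a negative fitted value and Slc30a6 had 0.04 ± 0.105, the median being -0.20 and the lowest -0.88 for Slc30a2. Scaling by library size alone moved the median of all genes from 0.00837 to -0.0865, and Slc30a6 turned to -0.05. The other 7 were further below 0. As that scaling lowers the values, it could not have turned them positive and says nothing on their sign.

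The zinc importers were led by Slc39a7, which releases zinc from the endoplasmic reticulum. Its levels were 249, 241 and 258 CPM in FXR+/+ and 228, 299 and 294 CPM in FXR-/-, and the groups overlapped (0.12 ± 0.103, edgeR adjusted p = 0.642). Slc39a11, whose product ZIP11 is an intracellular zinc transporter, was the importer with the lowest p. It stood at 17.3, 21.3 and 16.1 CPM in FXR+/+ and at 24.5, 38.0 and 25.3 CPM in FXR-/-. The groups did not overlap and M1 was highest in both genotypes. Its mean was 18.2 ± 2.78 CPM in FXR+/+ and 29.3 ± 7.59 CPM in FXR-/- (SD, n = 3), and FXR-/- exceeded FXR+/+ by 0.68 ± 0.18 on the log2 scale (edgeR adjusted p = 0.369, 0.0536 with the replicate block, DESeq2 adjusted p = 0.0577).

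Almost all reads of Slc39a11 in the exon table fell in its last exon (chromosome 11, 113244855 to 113246495, minus strand), with 184, 192 and 256 counts in FXR+/+ against 273, 300 and 266 in FXR-/-. There the log2 fold change was 0.58 ± 0.167 with an edgeR adjusted p of 0.544. Sums over endothelial and acinar markers are given beside it, and M1 was highest in both genotypes for these as well. The summed level of the 5 endothelial genes measured was 355, 427 and 341 CPM in FXR+/+ and 442, 691 and 478 CPM in FXR-/-, and all 5 had a higher fitted value in FXR-/-. The 21 acinar genes summed to 54300, 146000 and 48900 CPM in FXR+/+ and 69500, 167000 and 98900 CPM in FXR-/-, with overlap. In FXR-/- the fitted value was higher for 5 of 5 stellate and fibroblast genes, 5 of 6 macrophage genes and 3 of 4 ductal genes. It was lower for 2 of 2 B and T cell genes tested. With a term for acinar RNA in the fit, the log2 fold change of Slc39a11 was 0.48, and without both M1 libraries it was 0.57 (edgeR adjusted p = 0.0495). The part of endothelial RNA in it was not tested.

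Slc39a3 and Slc39a9 also separated by genotype, on small differences. Slc39a3, an importer of the plasma membrane, stood at 52.0, 53.0 and 52.0 CPM in FXR+/+ and at 56.0, 56.7 and 54.9 CPM in FXR-/- (0.09 ± 0.0718, edgeR adjusted p = 0.614). Slc39a9, an importer linked to the Golgi, stood at 95.1, 99.4 and 116 CPM in FXR+/+ and at 90.6, 92.1 and 90.6 CPM in FXR-/- (-0.18 ± 0.0888, adjusted p = 0.492). Neither passed the test. For Slc39a3 the sign rested on the scaling, its value being 0.00 with library size alone.

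Slc39a5 and Slc30a2 are zinc transporters known from exocrine pancreas, and their levels are read beside the acinar transcripts. Slc39a5 stood at 16.3, 42.2 and 14.5 CPM in FXR+/+ and at 20.1, 42.7 and 24.3 CPM in FXR-/-. Its order over the 6 libraries was that of the summed acinar genes, with both M1 libraries highest. The fitted value was 0.27 ± 0.372 (edgeR adjusted p = 0.792) and turned to -0.16 with a term for acinar RNA. Slc30a2 stood at 0.980, 3.52 and 1.23 CPM in FXR+/+ and at 0.891, 1.37 and 0.673 CPM in FXR-/-. Its FXR+/+ M1 library, with 71 counts against 16 to 39 in the others, was the highest, and the fitted value was -0.88 ± 0.510 (edgeR adjusted p = 0.54). It was -1.34 with a term for acinar RNA and -0.51 without the M1 pair, with adjusted p-values of 0.32 and 0.568.

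The other importers spanned a wide range of levels. Slc39a1, Slc39a6, Slc39a13, Slc39a14 and Slc39a10 had FXR+/+ means of 38.0, 42.3, 33.4, 29.6 and 18.8 CPM and log2 fold changes of 0.03, -0.02, 0.08, -0.06 and 0.00. Slc39a8, Slc39a2 and Slc39a4 were low, at FXR+/+ means of 1.51, 1.06 and 0.585 CPM. Their log2 fold changes were 0.51 ± 0.280, -0.49 ± 0.496 and 0.39 ± 0.381 (edgeR adjusted p = 0.529, 0.705 and 0.691), their groups overlapped, and that of Slc39a2 turned to 0.13 with a term for acinar RNA. Of the 13 importers tested, 9 had a positive fitted value and the median was 0.08.

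**Figure D3:**
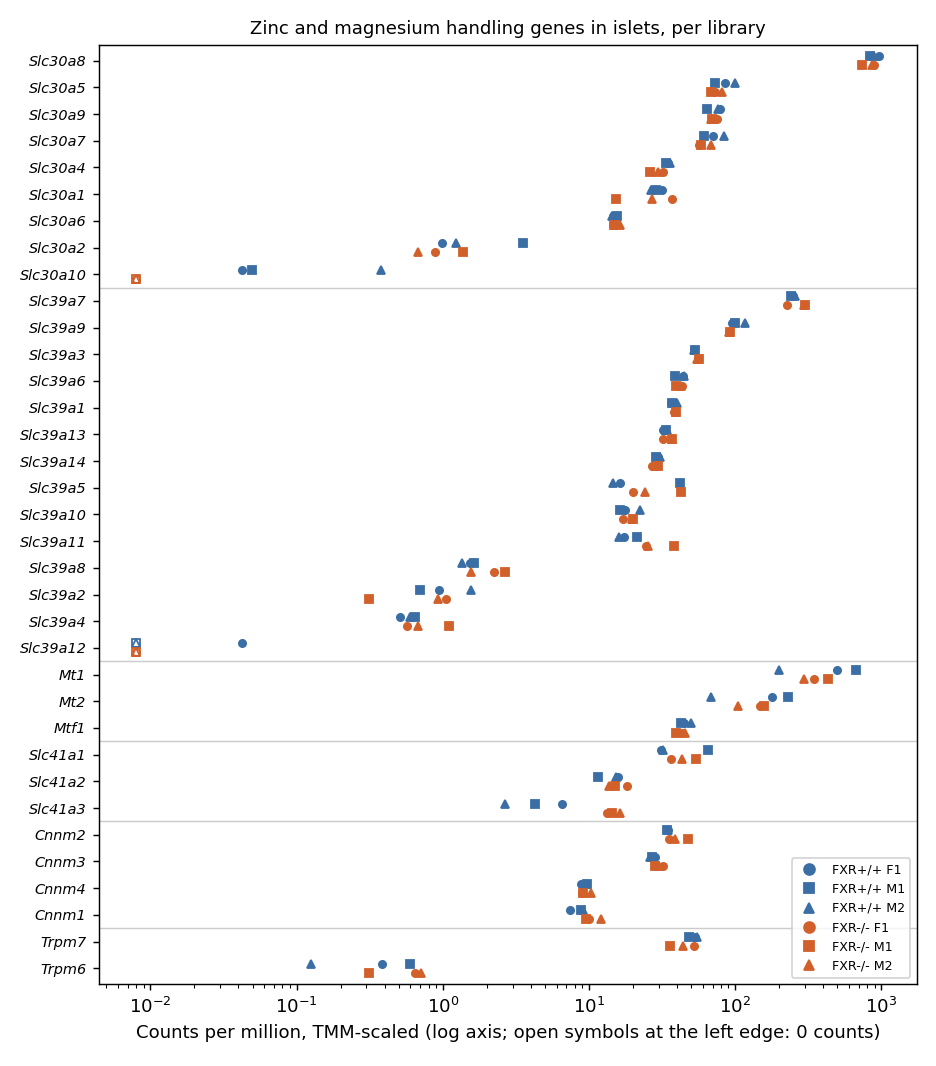
TMM-scaled CPM (horizontal log axis) of all 35 members in each of the 6 libraries, with FXR+/+ libraries in blue above FXR-/- libraries in orange and the families divided by grey lines. Slc30a8, at 737 to 969 CPM, is the highest and Slc39a12 the lowest; open symbols at the left edge stand for 0 counts.

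Metallothionein levels varied more between libraries of a genotype than between genotypes. Mt1 stood at 494, 668 and 200 CPM in FXR+/+ and at 347, 432 and 297 CPM in FXR-/-. The FXR-/- libraries lay within the range of the FXR+/+ libraries, with M1 highest and M2 lowest in each genotype. Mt2 followed the same order at 178, 229 and 68.0 CPM in FXR+/+ and 147, 157 and 104 CPM in FXR-/-. Fitted log2 fold changes were -0.34 ± 0.388 for Mt1 and -0.22 ± 0.388 for Mt2 (edgeR adjusted p = 0.743 and 0.838). Both turned to positive values, 0.25 and 0.40, when FXR+/+ M1 was left out, and both were further below 0 with a term for acinar RNA, at -0.73 ± 0.110 and -0.61 ± 0.0925 (edgeR adjusted p = 0.102 for both). Mtf1, the metal-sensing factor itself, was far steadier at 44.5, 42.8 and 49.9 CPM in FXR+/+ and 43.0, 39.5 and 45.1 CPM in FXR-/- (-0.11 ± 0.0965, adjusted p = 0.675).

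FXR+/+ M2, which had the lowest metallothionein levels, was also lowest in the summed list of immediate early and stress genes. Not every gene of the list was lowest there. Its heat shock genes Hspa1a and Hspa1b stood at 99.9 and 64.4 CPM in FXR+/+ M2, against 81.2 and 42.8 CPM in FXR-/- F1. Fos, the immediate early gene most used as a marker of acute stimulation, stood at 809, 1220 and 30.7 CPM in FXR+/+ and at 296, 1260 and 706 CPM in FXR-/-. The 12 genes of this list summed to 2980, 5610 and 360 CPM in FXR+/+ and to 1280, 7180 and 3190 CPM in FXR-/-. Within FXR+/+ the order of Mt1, Mt2 and the summed list was the same, while in FXR-/- the F1 library had the lowest sum but not the lowest Mt1. The part of the isolation in the metallothionein levels was not tested.

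**Figure D4:**
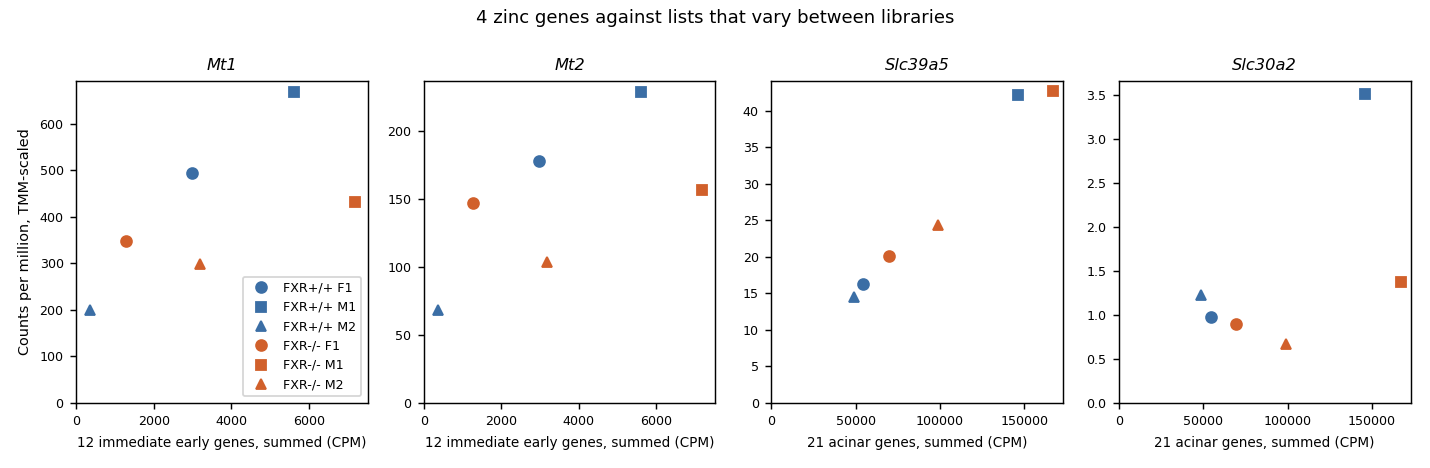
TMM-scaled CPM of Mt1 and Mt2 against the summed CPM of 12 immediate early and stress genes, and of Slc39a5 and Slc30a2 against the summed CPM of 21 acinar genes, one point per library (blue FXR+/+, orange FXR-/-; circle F1, square M1, triangle M2). FXR+/+ M2 is lowest on both axes for Mt1 and Mt2, and both M1 libraries are highest on both axes for Slc39a5.

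The sequences before Mt1 and Mt2 are shown because these genes moved together over the libraries and carry the metal response elements that Mtf1 binds. The core was searched as TGCACNC and TGCGCNC on both strands, and matches are in capitals in the 250 bases before each RefSeq start on the plus strand of GRCm38.p6, chr8:94178839-94179088 for Mt1 and chr8:94172368-94172617 for Mt2.
Mt1: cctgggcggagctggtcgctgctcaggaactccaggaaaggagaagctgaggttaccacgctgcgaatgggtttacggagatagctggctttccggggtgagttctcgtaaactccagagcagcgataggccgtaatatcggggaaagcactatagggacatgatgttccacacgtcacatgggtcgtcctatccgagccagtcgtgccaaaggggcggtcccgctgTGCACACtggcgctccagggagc
Mt2: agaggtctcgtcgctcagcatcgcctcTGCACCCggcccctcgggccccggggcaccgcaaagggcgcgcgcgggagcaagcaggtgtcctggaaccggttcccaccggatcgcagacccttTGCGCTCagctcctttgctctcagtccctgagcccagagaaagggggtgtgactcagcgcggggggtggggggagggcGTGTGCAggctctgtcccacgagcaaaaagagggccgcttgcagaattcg
Counting the 50 bases after the start as well, the Mt1 window held 3 cores and the Mt2 window 4. A core was found in windows of 18 of the 31 members that had one, in 19 of their 35 windows, and in 25.7% of all windows. Slc30a1 held 2 and Slc30a4 held 3.

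Of the other genes of magnesium handling among the members, 3 of the 4 Cnnm genes had every FXR-/- library above every FXR+/+ library on TMM-scaled levels. This held for 8.01% of all genes. Cnnm1 stood at 7.41, 8.87 and 9.15 CPM in FXR+/+ and at 9.96, 9.51 and 12 CPM in FXR-/- (0.31 ± 0.139, edgeR adjusted p = 0.483). Cnnm2 stood at 34.6, 34.0 and 34.9 CPM in FXR+/+ and at 35.4, 47.6 and 38.8 CPM in FXR-/- (0.23 ± 0.110, adjusted p = 0.492). Cnnm3 stood at 28.3, 26.9 and 26.1 CPM in FXR+/+ and at 32.1, 28.5 and 30.2 CPM in FXR-/- (0.16 ± 0.0823, adjusted p = 0.511). The gaps between the groups were small in all 3, and 0 of the 4 passed the test. The separation rested on the scaling: with library size alone the log2 fold changes of Cnnm1, Cnnm2 and Cnnm3 were 0.22, 0.13 and 0.07. Cnnm4 overlapped, with means of 9.32 ± 0.477 and 9.52 ± 0.753 CPM (SD, n = 3).

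Trpm7, the widely expressed channel kinase, stood at 52.8, 48.3 and 54.7 CPM in FXR+/+ and at 52.1, 35.8 and 44.2 CPM in FXR-/-. Only the F1 libraries were alike, the groups overlapped, and the fitted value was -0.25 ± 0.119 on the log2 scale (edgeR adjusted p = 0.491). Trpm6, known from kidney and gut, had 4 to 17 counts a library and a fitted value of 0.73 ± 0.626.

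**Figure D5:**
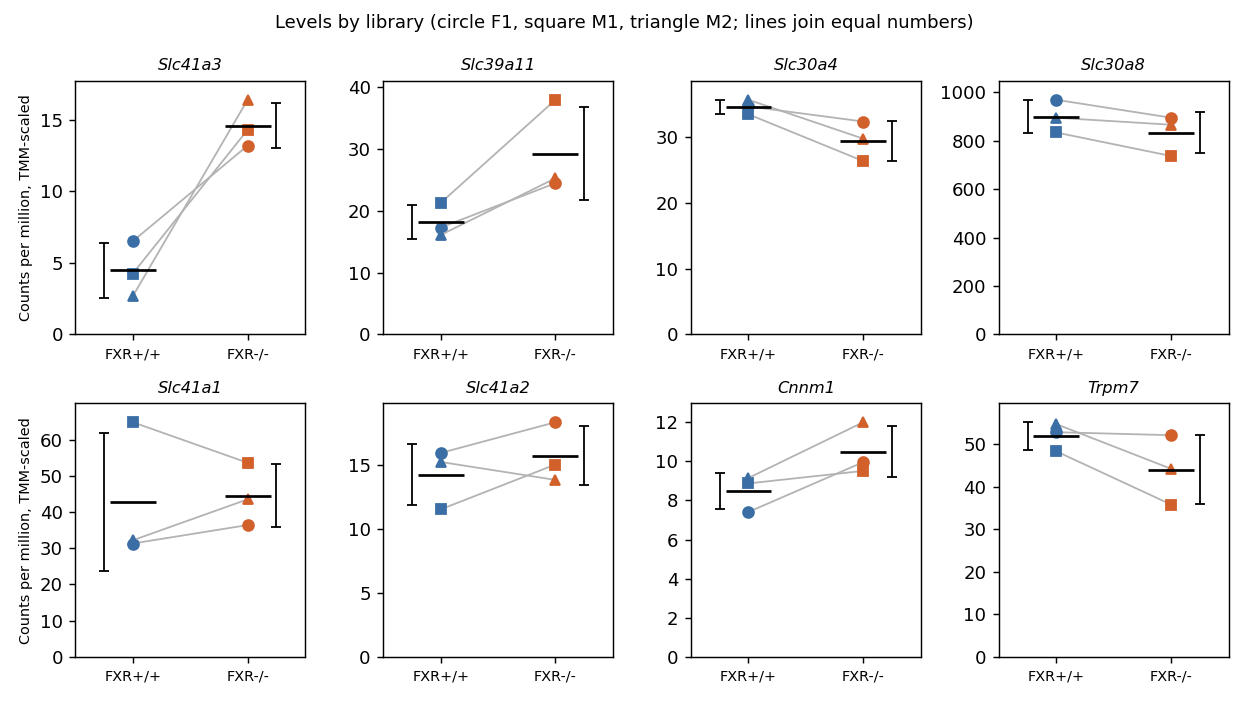
TMM-scaled CPM (vertical axes, starting at 0) of 8 members in the FXR+/+ and FXR-/- libraries, with grey lines joining same-numbered libraries, horizontal bars at the means and error bars of 1 SD (n = 3). Slc41a3 moves from 2.68 to 6.52 CPM up to 13.2 to 16.4 CPM, Slc39a11 and Cnnm1 also separate upwards and Slc30a4 downwards, and the other 4 overlap.

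Among 13 further genes of magnesium handling that were tested, 3 had an unadjusted p under 0.05 (23.1% against 10.3% of all genes), all with a higher level in FXR-/-, and 0 passed edgeR's adjusted threshold. Nipal3, a magnesium transporter of the NIPA family, stood at 166, 131 and 150 CPM in FXR+/+ and at 204, 198 and 201 CPM in FXR-/-. The groups did not overlap and the FXR-/- libraries were nearly equal (0.44 ± 0.0906, edgeR adjusted p = 0.274, DESeq2 adjusted p = 0.003). Ptp4a3 and Ptp4a2, phosphatases that bind Cnnm proteins, had log2 fold changes of 0.36 ± 0.130 and 0.18 ± 0.0774 (edgeR adjusted p = 0.453 and 0.481). Magt1, a magnesium transporter of the plasma membrane, was fitted at 0.21 ± 0.122 on the log2 scale (edgeR adjusted p = 0.539). The median over the 13 genes was 0.00.

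Of 11 other genes of zinc, copper and iron handling, 3 had an unadjusted p under 0.05 (27.3% against 10.3% of all genes) and 0 passed the adjusted threshold by edgeR. Mt3, a metallothionein best known from brain, was low at 1.19, 3.52 and 2.02 CPM in FXR+/+ and 2.83, 4.78 and 4.92 CPM in FXR-/- (0.95 ± 0.255, adjusted p = 0.369), and without the M1 pair its value was 1.26 (edgeR adjusted p = 0.0351). Tfrc, the transferrin receptor, stood at 89.5, 93.1 and 118 CPM in FXR+/+ and at 78.3, 83.6 and 71.4 CPM in FXR-/-, without overlap (-0.36 ± 0.119, adjusted p = 0.431). Slc40a1, the iron exporter ferroportin, overlapped at 25.9 to 56.6 CPM over all libraries (-0.32 ± 0.123, adjusted p = 0.458). The median over the 11 genes was 0.01, that over all genes 0.01.

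Members Slc39a3, Slc39a5 and Slc41a2 lie on chromosome 10 with Nr1h4, at 8.42, 38.86 and 6.12 Mb from it. Their log2 fold changes of 0.09, 0.27 and 0.14 had edgeR adjusted p-values of 0.614, 0.792 and 0.689, and Slc39a3 was the one of them whose libraries separated by genotype.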

How the data were processed

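Poly(A) RNA of islets was sequenced from 3 FXR+/+ and 3 FXR-/- libraries, grouped by their labels. The authors deposited whole-number read counts per gene and per exon. HISAT is named as the aligner by the submitters' processing notes, the counting tool and its use of strand are not given in the sources used here, and exon counts came to 32.3% to 36.6% of gene counts. The deposited tables of the authors' own comparison (log2 fold changes, p-values and q-values) were not used. Exon positions match GRCm38, and gene positions and exon lengths come from GENCODE vM21.

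Genes were filtered with filterByExpr (10 counts, 15 in total), scaled by TMM and fitted with the quasi-likelihood test of edgeR 4.0.16 (R 4.3.3) with sex and genotype as terms, over 14619 genes, and in the same way over 26998 exons. P-values were adjusted by Benjamini-Hochberg over all features tested, with a call at an adjusted p under 0.05, and SE is the log2 fold change divided by the root of F. DESeq2 1.42.0 was an alternative. Tested on simulated counts with 200 changed genes, the fit called 183 of them and 8 others. The simulated libraries were independent and had a single spread for all genes, so these counts do not give the power in the real libraries. Standard deviations are between libraries, and p-values measure only the spread between these libraries, which may be technical. No 2 libraries agreed within sampling noise.

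Same-numbered libraries of the genotypes deviated together from their group means (correlations over genes of 0.361 for F1, 0.367 for M1 and 0.323 for M2), so a fit with the number as a block is given where it changes a call. The members, the other lists and the tests were chosen with earlier results of these data known. Values are printed for Slc41a3, Slc30a8, Mt1, Mt2, Trpm7 and Slc30a1, and for members and genes of the metal lists with an unadjusted p under 0.05 or, among members, without overlap of the groups. Slc41a1, Slc41a2, Slc39a5, Slc30a2, Slc39a7, Magt1 and single clock, immediate early and stress genes were added after their values were seen. Values of further members, among them Mtf1, Trpm6, Slc30a6 and the remaining Slc39a genes, are also printed outside that rule. Promoter windows are RefSeq's on GRCm38.p6. Alternatives were other scalings, filters and models, the males alone, an added term for the share of acinar transcripts, and fits that dropped 1 library at a time.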

Additional observations from a re-analysis of the deposited data

How the results depend on the processing

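Over all genes edgeR called 0 as fitted (1510 at an unadjusted p under 0.05), 23 with the replicate block, 7 with a term for acinar RNA, 4 from exon counts summed per gene, 177 with DESeq2 and 235 without the M1 pair. That last setting was chosen after seeing the data. Members called were 0 as fitted, 1 with DESeq2 (Slc41a3) and 2 without the M1 pair (Slc41a3 and Slc39a11), and 0 in every other setting tried. Slc41a3 passed the threshold with DESeq2 (1.76) and without the M1 pair (1.79), and kept its direction in all 18 settings, from 1.45 to 2.16 on the log2 scale with each library left out. Its exon 12 passed with DESeq2 (1.82), without the M1 pair (1.57), with no filter on low counts (1.71) and with the replicate block (1.73), and ranged from 1.32 to 2.56 with each library left out. The replicate block changed no other call of the members, and among other genes named it brought Nr1h4 to an adjusted p of 0.044. The median over members moved from 0.032 to -0.064 with library size alone, where that of all genes moved to -0.0865 and the share of genes at an unadjusted p under 0.05 that were higher in FXR-/- went from 59.8% to 29.0%. Turned in sign without the M1 pair were Mt1 (0.02), Mt2 (0.16) and Slc30a1 (0.12), and Mt2 also from summed exon counts (0.20). With each library left out Mt1 ranged from -0.72 to 0.25, Mt2 from -0.59 to 0.40 and Slc30a1 from -0.39 to 0.08. The cause was not tested. A tally was made for 19 other genes, those that the rule above selects for printing, and Nr1h4. Of their 341 values, 328 kept direction and side of the threshold, 7 turned in sign and 6 newly passed. Other genes printed were outside the tally, and some of them turned in sign too, among them Slc39a5, Slc39a2 and Slc30a6 as given above. Slc41a1 turned from 0.07 to -0.18 with a term for acinar RNA and to -0.01 with library size alone. Leaving out a female library leaves its genotype with males alone, and the lone female is taken to vary like the others. What depth added to the errors of low genes was not tested.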
